A study of Homo sapiens with 4 samples.

Results

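The messages that encode the proteins of the large ribosomal subunit were followed in RNA from the culture supernatant of HEK293T cells, a human embryonic kidney line. They are 45 protein-coding genes, chosen by symbol from a list of large subunit proteins (RPLP0 to RPLP2 and RPL3 to RPL41, without their paralogs), and all 45 were found among the 61543 genes counted. Of the 4 libraries, 2 came from EPN24-Cas13d and 2 from EPN24. EPN24 is the protein of a secreted nanocage, and EPN24-Cas13d is that protein fused to Cas13d, an RNA-binding CRISPR nuclease, so the comparison asks which RNAs the supernatant held when the cage carried Cas13d. The labels name no guide RNA, no catalytic state of Cas13d and no time of harvest, and RNA of the producing cells was not analysed here. In both groups the supernatant was cleared and filtered, and the same dilution of synthetic ERCC spike-in RNA was added to a fixed volume before extraction. The labels do not say whether the 2 libraries of a group stem from different cultures. The p-values therefore speak of the spread among these 4 libraries alone, and that spread may be technical.

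A ribosome joins amino acids in its large subunit, whose ribosomal RNA forms the peptidyl transferase centre while the proteins sit mostly on the surface and send extensions inward. Cells make the proteins in equal numbers, with the acidic P stalk proteins as the known exception, and their messages are short, abundant and widely used as housekeeping transcripts. Most begin with a C followed by a run of pyrimidines, the 5' terminal oligopyrimidine (TOP) motif, through which LARP1 and the mTOR pathway control their translation together.

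The start sites of the members at both ends of the comparison are shown because this motif is the best-known sequence that the messages share. Each line holds 10 bases before the RefSeq start and 20 bases from it (GRCh38.p14, 5' to 3'), and capitals mark the unbroken pyrimidines that follow when the first base is C. The first 5 had the largest positive log2 fold changes on the gene-count scale.
RPL3 (chr22:39319604-39319633, minus strand): gccgaccggcCTCTaccggcgggatttgat
RPLP0 (chr12:120201092-120201121, minus strand): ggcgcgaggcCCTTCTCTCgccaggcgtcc
RPL7A (chr9:133348208-133348237, plus strand): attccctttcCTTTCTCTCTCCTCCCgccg
RPL13A (chr19:49487598-49487627, plus strand): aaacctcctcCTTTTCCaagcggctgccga
RPL18 (chr19:48619159-48619188, minus strand): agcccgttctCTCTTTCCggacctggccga
The next 5 had the most negative ones.
RPL31 (chr2:101002279-101002308, plus strand): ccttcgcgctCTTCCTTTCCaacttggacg
RPLP2 (chr11:809957-809986, plus strand): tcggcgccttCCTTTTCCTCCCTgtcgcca
RPL36A (chrX:101391001-101391030, plus strand): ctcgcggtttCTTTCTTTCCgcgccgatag
RPL38 (chr17:74203668-74203697, plus strand): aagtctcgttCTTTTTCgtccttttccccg
RPL39 (chrX:119791611-119791640, minus strand): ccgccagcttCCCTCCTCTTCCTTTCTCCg
A run of at least 5 pyrimidines stands at 4 of the first 5, with RPL3 at 4 bases as the exception, and at all of the next 5, with the longest run at RPL39. Over the 38 members with a RefSeq start, 28 (73.7%) opened with C and such a run of at least 5 pyrimidines, against 1404 of 27305 genes (5.14%) in the same table. By call on the gene-count scale, the motif stood at 8 of 12 higher members, at 17 of 20 lower members and at 3 of 6 members that were not called. These counts are a description of annotated RefSeq starts. Some members had more than 1 entry, such as RPL13 and RPL10 with 3 each, and their longest run was used. Start sites outside that annotation were not searched.

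The libraries held 5097332 and 4863449 gene counts in EPN24-Cas13d, against 1830860 and 1903492 in EPN24, and 89588 and 82049 ERCC counts in EPN24-Cas13d, against 445118 and 502789 in EPN24. The kinds of RNA differed too. Protein-coding genes took 93.9% ± 0.259 of gene counts in EPN24-Cas13d and 41.0% ± 2.31 in EPN24 (SD, n = 2 each), while the RN7SL genes of the signal recognition particle RNA took 1.62% ± 0.173 in EPN24-Cas13d and 36.4% ± 2.31 in EPN24. These shares moved with every result below that is given per gene count, and their part in those results was not tested. Of the 6 markers fixed for the HEK293 line, all were counted in all libraries, with VIM, NEFL and INA higher and NEFM lower in EPN24-Cas13d by the gene-count test. Their summed level was 1635 and 1638 counts per 1000000 gene counts in EPN24-Cas13d, against 356 and 355 in EPN24. VIM held most of that sum in EPN24-Cas13d, with 7502.67 of 8334.67 and 7233.33 of 7964.33 marker counts. In EPN24 it held 280.5 of 651 and 331.67 of 675.67, so the higher sum in EPN24-Cas13d comes from VIM. PAX2 and LHX1 were not called, at log2 fold changes of -0.71 and -0.50. The 10 markers of blood, liver, red cells, fibroblasts, endothelium and skin summed to 17.7 and 26.7 on the same scale in EPN24-Cas13d, against 101.05 and 92.5 in EPN24. COL1A1 held 76 of 90 and 102 of 130 of these counts in EPN24-Cas13d, against 72 of 185 and 73 of 176 in EPN24. Of the 9 markers tested, 8 were called lower by the gene-count test and 1 was not called. FGB and AHSP were at 0 in both EPN24-Cas13d libraries, and none was at 0 in all 4.

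Each member was therefore read on a pair of scales. The gene-count scale gives counts per 1000000 gene counts (CPM) after TMM scaling, a correction for the composition of the library, and it shows whether a message gained or lost ground among the RNAs of its own supernatant. The ERCC scale sets the same counts against the spike-in counts and follows the amount of a message per volume of supernatant. On the ERCC scale the 20476 tested genes had a median log2 fold change that lay 3.34 above that on the gene-count scale. How many cells released RNA and how much each released cannot be told apart on either. All 45 members passed the filter on low counts, the lowest count of any being 18.

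Summed over the 45 members, large subunit messages made up 1.69% and 1.78% of gene counts in the EPN24-Cas13d libraries, against 1.32% and 1.37% in the EPN24 libraries. The share was 1.29-fold higher in EPN24-Cas13d (1.73% ± 0.0635 against 1.35% ± 0.0383 in EPN24, SD, n = 2 each), and the libraries did not overlap. As a share of protein-coding counts alone the direction turned, with 1.79% and 1.90% in EPN24-Cas13d and 3.09% and 3.49% in EPN24, a ratio of 0.561. Per ERCC count, the members summed to 0.960 and 1.05 in EPN24-Cas13d, against 0.0543 and 0.0520 in EPN24, which is 18.9-fold higher in EPN24-Cas13d. All protein-coding genes together were 33.6-fold higher per ERCC count, at 54.5 ± 1.43 in EPN24-Cas13d and 1.62 ± 0.186 in EPN24 (SD, n = 2 each). With 2 libraries a group, the two-sided exact permutation test gave p = 0.333 for each of these 4 quantities, the smallest p that this design allows.

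The summed levels hide opposite movements of single members. On the gene-count scale, 13 of the 45 messages were higher in EPN24-Cas13d, 26 were lower and 6 did not pass the test (quasi-likelihood test of edgeR, with a Benjamini-Hochberg adjusted p under 0.05). Over all 20476 tested genes, 32.6% were higher and 48.2% lower, so against that set the members' counts lie near the background. Of the 15507 tested protein-coding genes, 37.0% were higher and 42.9% lower, and beside these the members leaned further to lower calls. Whether the members differ from either set was not tested. The median member had a log2 fold change of -0.81, beside -0.96 for all tested genes and -0.40 for protein-coding ones, and 24 of the 45 lay above the median of all tested genes. Members ran from 3.16 for RPL3 to -4.02 for RPL39, a value that came to -2.17 with the counts of its pseudogenes added. In 40 of 45 members the CPM values of the groups did not overlap, against 91.2% of tested genes (36.8% higher and 54.3% lower in EPN24-Cas13d); the exceptions were RPL17, RPL6, RPL29, RPL19 and RPL35A.

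The split of calls depends on what the counts are scaled to. Scaling by total gene counts, which shifts the fold change of the median gene by -0.57, gave 10 higher and 33 lower members. Testing only the 11735 genes with at least 10 counts and 10 CPM in 2 libraries gave 8 higher and 35 lower. In that set the median member stood at -1.67 beside 0.015 for all genes, with 10 of 45 members above the median. A gene could pass this filter through the EPN24-Cas13d libraries alone. The median per ERCC count was 4.23 in that set and 2.38 over all tested genes. The members thus stand there beside genes selected toward higher fold changes. Removing a trend with coding GC gave 17 higher and 22 lower members. Removing a trend with deposited exon length, not protein length, gave 18 and 21, and it shifted the fold change of the median gene by 0.50.

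**Figure D1:**
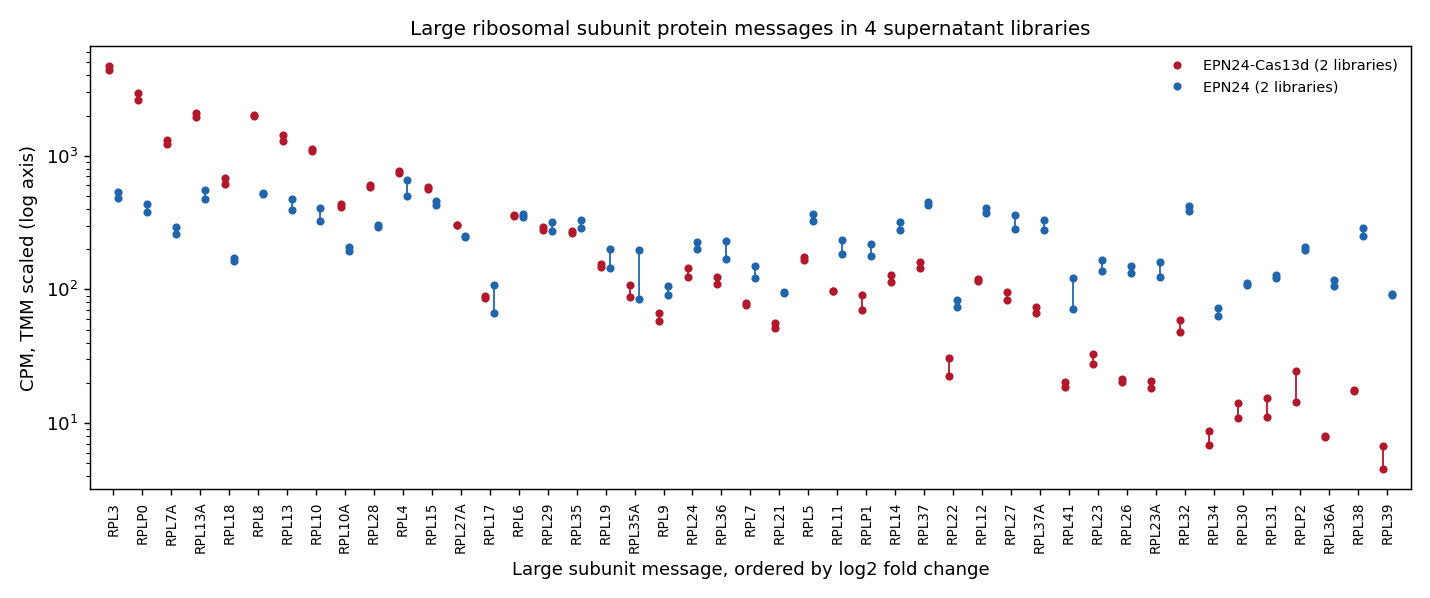
Level of each large subunit message in the 4 libraries, in TMM-scaled CPM on a log axis, with EPN24-Cas13d in red to the left and EPN24 in blue to the right of each gene. Points are single libraries and a line joins the 2 of a group; genes are ordered by log2 fold change, from RPL3 at 3.16 to RPL39 at -4.02, and the red points span a far wider range than the blue ones.

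On the ERCC scale, 37 of the 45 messages were higher in EPN24-Cas13d, 1 was lower (RPL38) and 7 were not called, where 58.4% of all tested genes and 65.7% of the protein-coding ones were higher and 2.33% of all were lower. The median member had a log2 fold change of 2.56, beside 2.38 for all tested genes and 2.94 for protein-coding ones. In the set under the stricter filter the order turned, with 2.56 for the median member beside 4.23 for all genes and 10 of 45 members above that median. With counts halved the medians were 2.55 and 3.40. Fewer genes passed in both settings, and their medians lay above 2.38, so the members stand there beside a selected set. The set behind 2.38 is selected too, by the main filter. All 13 members that were higher among gene counts were also higher per ERCC count, as were the 6 that were not called there. Of the 26 that were lower among gene counts, 18 were higher per ERCC count, 7 were not called and RPL38 was lower on both. The 7 were RPL23A, RPL34, RPL30, RPL31, RPLP2, RPL36A and RPL39, with log2 fold changes between 0.51 for RPL23A and -0.67 for RPL39. Without the second EPN24 library RPL23A was called higher, at 0.56, and RPL39 lower, at -0.80.

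**Figure D2:**
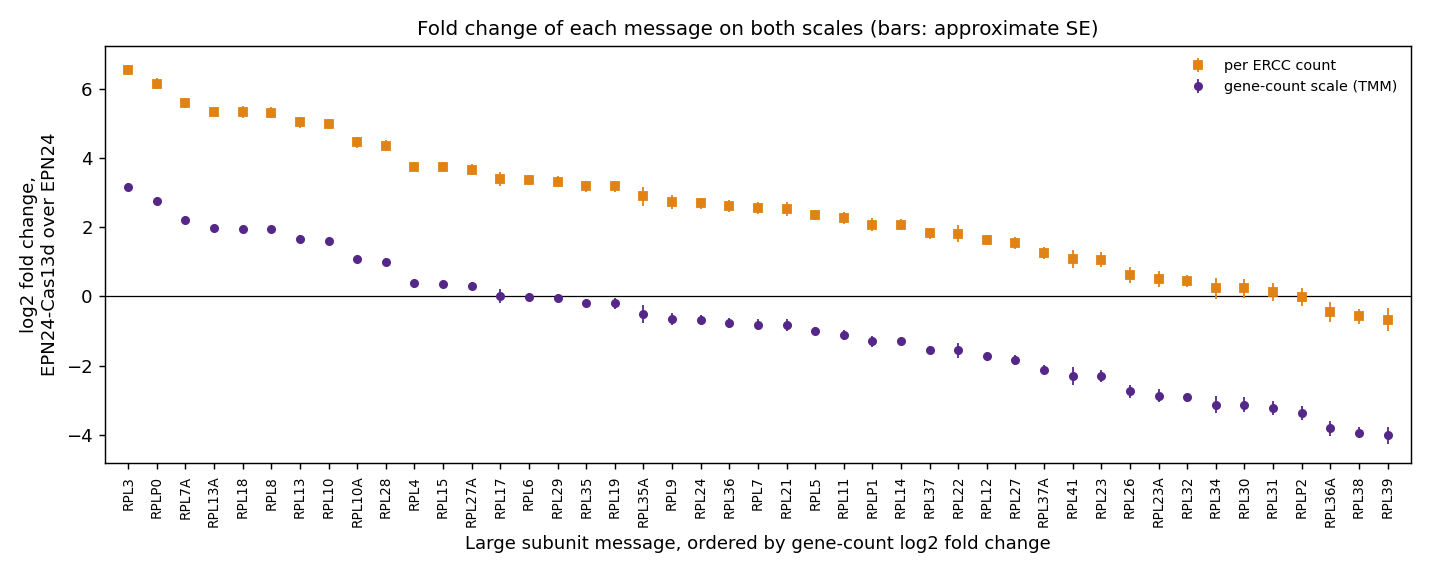
Log2 fold change of EPN24-Cas13d over EPN24 for each of the 45 messages, per ERCC count (orange squares) and on the gene-count scale (purple circles), with bars of 1 approximate SE. The order of the genes is alike on both scales and the orange points stand higher by a nearly constant amount, so that members below 0 on the gene-count scale mostly lie above 0 per ERCC count.

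The levels within the family were far less even in EPN24-Cas13d than in EPN24. Counts of the members ran from 28 for RPL39 to 18287 for RPL3 in the first EPN24-Cas13d library and from 18 to 18649.5 for the same genes in the second. In EPN24 they ran from 142 for RPL34 to 1181.5 for RPL8 in the first library and from 153 for RPL34 to 1400.5 for RPL4 in the second. The median member had close counts in all 4 libraries, at 456.5 and 454 in EPN24-Cas13d, against 463 and 497 in EPN24, although the EPN24-Cas13d libraries held more counts in all.

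The 5 members with most counts held 59.8% ± 1.11 of the large subunit counts in EPN24-Cas13d and 22.4% ± 0.330 in EPN24 (SD, n = 2 each), and the top 10 held 80.5% ± 0.844 in EPN24-Cas13d and 40.2% ± 0.842 in EPN24. Reaching 50% of large subunit counts took 4 messages in each EPN24-Cas13d library, against 13 and 14 in the EPN24 libraries. RPL3 alone took 21.3% and 21.6% in EPN24-Cas13d, against 4.47% and 4.31% in EPN24. The libraries of the groups did not overlap in any of these shares (two-sided exact permutation p = 0.333 for each, the smallest possible). The 3 highest members by mean CPM were RPL3, RPLP0 and RPL8 in EPN24-Cas13d and RPL4, RPL8 and RPL13A in EPN24. CPM was not divided by length, so an order between genes also reflects how long their messages are.

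**Figure D3:**
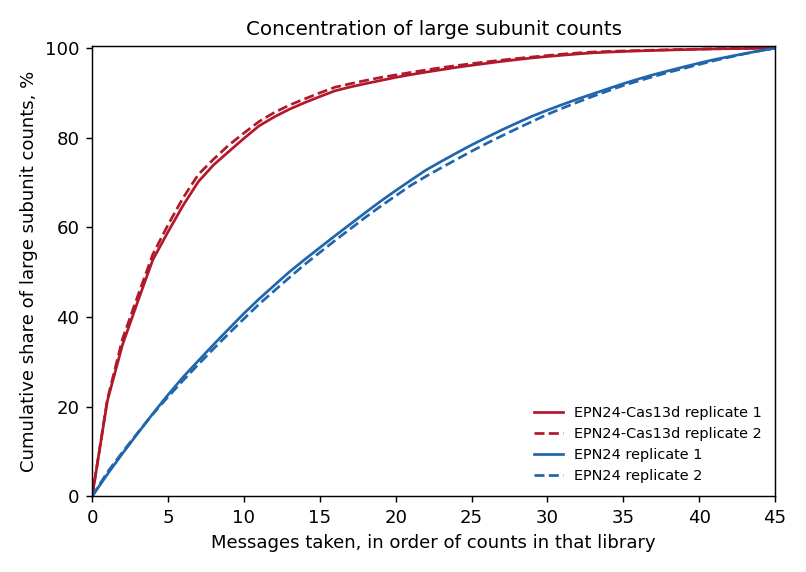
Cumulative share of all large subunit counts, in percent, as messages are taken in order of their counts in each library, with EPN24-Cas13d in red and EPN24 in blue. Both red curves pass 50% at the 4th message and the blue ones at the 13th and 14th, and the replicates of a group nearly coincide.

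The 4 proteins that reach toward the peptidyl transferase centre or help shape it were all encoded by messages higher in EPN24-Cas13d, with a median log2 fold change of 1.78 on the gene-count scale. Over all tested genes, 32.6% were higher and 48.2% lower. These proteins have 214 to 427 residues. The 6 around the tunnel exit have 51 to 184 and the 5 facing the small subunit 25 to 196. In the P stalk RPLP0 has 317 and its partners 114 to 165. Role and length thus go together among the members, and their parts were not tested. RPL3 encodes a large, universally conserved protein whose extension approaches the centre, and its gene lies at chr22:39312882-39320389. It had 4396 and 4694 CPM in EPN24-Cas13d, against 482 and 533 CPM in EPN24. Every EPN24-Cas13d library thus stood far above every EPN24 library, and the log2 fold change was 3.16 (SE 0.10, adjusted p = 3.6e-12, quasi-likelihood test of edgeR with the Benjamini-Hochberg adjustment). Per 1000 ERCC counts RPL3 had 204 and 227 counts in EPN24-Cas13d, against 2.43 and 2.24 in EPN24, a log2 fold change of 6.53 (SE 0.15).

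RPL8, another protein near the centre, had 1986 and 2037 CPM in EPN24-Cas13d, against 527 and 518 in EPN24. The replicates lay close together and the groups apart, with a log2 fold change of 1.94 (SE 0.09) on the gene-count scale. RPL10, which joins the subunit late in its maturation, was higher by 1.61. RPL4, whose loop lines the narrow part of the exit tunnel, had 769 and 739 CPM in EPN24-Cas13d, against 503 and 663 in EPN24. The RPL4 libraries did not overlap, but the gap was no wider than the spread within EPN24, and its log2 fold change of 0.37 (SE 0.12, adjusted p = 0.0116, same edgeR test) turned to -0.19 when counts were scaled by total gene counts. RPL15 and RPL27A, at 0.36 and 0.29 with TMM, came to -0.21 and -0.28 on that scaling. The calls of RPL4 and RPL27A also ended without either EPN24-Cas13d library or the first EPN24 library, and that of RPL15 without either EPN24-Cas13d library; RPL27A was also not called under the replicate block or with the GC trend removed.

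The mobile stalks of the subunit went different ways. RPL10A forms the head of the L1 stalk, beside which the used tRNA leaves. It had 412 and 437 CPM in EPN24-Cas13d, against 195 and 207 CPM in EPN24, and rose by a log2 fold change of 1.08 (SE 0.11) on the gene-count scale, which came to 0.22 and lost its call under the stricter filter. The P stalk on the opposite side recruits the translation factors. It is built of RPLP0, the base that binds ribosomal RNA, with dimers of RPLP1 and RPLP2 attached to it and RPL12 beneath.

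RPLP0 had 2597 and 2945 CPM in EPN24-Cas13d, against 376 and 439 CPM in EPN24. RPLP1 had 90.9 and 70.5 CPM in EPN24-Cas13d, against 179 and 218 CPM in EPN24. RPLP2 had 24.5 and 14.3 CPM in EPN24-Cas13d, against 207 and 196 CPM in EPN24. RPLP0 was therefore higher in both EPN24-Cas13d libraries and its partners were lower in both, with no overlap for any of them. The log2 fold changes were 2.76 (SE 0.11) for RPLP0, -1.30 (SE 0.16) for RPLP1, -3.36 (SE 0.20) for RPLP2 and -1.74 (SE 0.12) for RPL12, and all of them passed the edgeR test. RPLP0 and RPLP2 thus stood in a ratio of 106 and 205 counts to 1 in EPN24-Cas13d, against 1.82 and 2.25 to 1 in EPN24. The spread of that ratio in EPN24-Cas13d comes with few RPLP2 counts, down to 57 in the second library. Per ERCC count RPLP2 did not pass the test, with a log2 fold change of -0.015 (SE 0.27) and 1.14 and 0.695 counts per 1000 ERCC counts in EPN24-Cas13d, against 1.04 and 0.821 in EPN24, while RPLP1 rose by 2.07.

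RPL5 and RPL11 bind the 5S ribosomal RNA before they join the subunit, and the free particle inhibits MDM2 and so stabilises p53. RPL5 had 176 and 167 CPM in EPN24-Cas13d, against 328 and 366 CPM in EPN24. RPL11 had 96.6 and 97.2 CPM in EPN24-Cas13d, against 183 and 235 CPM in EPN24. Both were lower in each EPN24-Cas13d library, by log2 fold changes of -1.01 (SE 0.12) and -1.11 (SE 0.14). The ratio of RPL5 to RPL11 counts was 1.82 and 1.72 in EPN24-Cas13d, against 1.79 and 1.56 in EPN24, and here the groups overlapped (two-sided exact permutation p = 0.667). RPL5 stood at 0.49 on the gene-count scale once a trend with coding GC was removed, and RPL24, RPL9, RPL7 and RPL21 also turned positive then.

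Of the 6 proteins around the exit of the polypeptide tunnel, RPL23A, RPL26, RPL31 and RPL39 were encoded by lower messages and RPL17 and RPL35 were not called, with a median log2 fold change of -2.80. RPL39, a very small protein set in the tunnel wall, had 6.73 and 4.53 CPM in EPN24-Cas13d, against 92.8 and 91.4 CPM in EPN24. RPL31, which lies beside the exit where chaperones dock, had 15.3 and 11.1 CPM in EPN24-Cas13d, against 122 and 128 CPM in EPN24. Both EPN24-Cas13d libraries lay far below the EPN24 libraries, and the log2 fold changes were -4.02 (SE 0.25, or -2.17 with pseudogene counts) for RPL39 and -3.23 (SE 0.21) for RPL31. Per 1000 ERCC counts RPL39 had 0.313 and 0.219 counts in EPN24-Cas13d, against 0.467 and 0.384 in EPN24, and RPL31 had 0.709 and 0.536 in EPN24-Cas13d, against 0.613 and 0.537 in EPN24. On this scale neither passed the test, at -0.67 and 0.12. RPL26, the ribosomal target of the ubiquitin-like modifier UFM1, was higher per ERCC count by 0.62 (adjusted p = 0.0328, same edgeR test), a call that ended without either EPN24-Cas13d library, without the filter, under the replicate block and with DESeq2.

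The 5 proteins of the face toward the small subunit gave 4 lower messages, RPL23, RPL24, RPL30 and RPL41, and RPL19 at -0.20 was not called. RPL41 encodes a peptide of 25 residues that forms a bridge to the small subunit. It had 20.2 and 18.6 CPM in EPN24-Cas13d, against 70.9 and 121 CPM in EPN24. The EPN24 libraries differed from each other, yet both stood above EPN24-Cas13d, and the log2 fold change was -2.30 (SE 0.25). Per ERCC count RPL41 was higher by 1.08 (adjusted p = 0.00331, same edgeR test); that call ended without the first EPN24-Cas13d library and with DESeq2, and the call of RPL23, higher per ERCC count by 1.05, ended without that library too.

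The other 23 proteins were spread over both directions, with 7 higher, 13 lower and 3 not called and a median log2 fold change of -0.77. RPL7A, of a family of proteins that bind kink-turns in RNA, had 1229 and 1319 CPM in EPN24-Cas13d, against 258 and 292 in EPN24. RPL13A, also known from the GAIT complex that silences inflammatory messages, had 1936 and 2075 CPM in EPN24-Cas13d, against 474 and 557 in EPN24. RPL18 had 615 and 682 CPM in EPN24-Cas13d, against 162 and 172 in EPN24. All of them separated the groups fully, with gene-count log2 fold changes of 2.21 (SE 0.11), 1.96 (SE 0.11) and 1.95 (SE 0.11).

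RPL38, a protein whose loss in mice alters the translation of Hox messages, had 17.3 and 17.6 CPM in EPN24-Cas13d, against 249 and 289 CPM in EPN24. RPL36A had 8.01 and 7.80 CPM in EPN24-Cas13d, against 105 and 118 CPM in EPN24. Both pairs of EPN24-Cas13d libraries agreed closely and lay below EPN24, with log2 fold changes of -3.94 (SE 0.16) and -3.82 (SE 0.22). RPL38 was also the single message called lower per ERCC count, with 0.804 and 0.853 counts per 1000 ERCC counts in EPN24-Cas13d, against 1.26 and 1.21 in EPN24. Its log2 fold change on that scale was -0.58 (SE 0.22, adjusted p = 0.0357, same edgeR test), and the call did not hold when either EPN24-Cas13d library was left out, without the filter on low counts (adjusted p = 0.0776), under the replicate block (adjusted p = 0.124) or with DESeq2 (adjusted p = 0.327).

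RPL13 and RPL28 rose by log2 fold changes of 1.65 and 0.99 on the gene-count scale; that of RPL28 was not called under the stricter filter, at 0.13, or with the GC trend removed, at 0.20. The smaller decreases, between -0.65 and -0.83, belonged to RPL9, RPL24, RPL36, RPL7 and RPL21. None of these 5 was called with the exon-length trend removed. The calls of RPL9, RPL21 and RPL36 ended without the first EPN24-Cas13d library and those of RPL9 and RPL24 without the second. With DESeq2 RPL9, RPL21 and RPL24 were not called, and without the filter on low counts RPL9 and RPL24 were not. RPL14, RPL37, RPL22 and RPL27 had log2 fold changes of -1.30, -1.54, -1.56 and -1.84, and RPL37A, RPL32 and RPL34 of -2.12, -2.92 and -3.13. With the GC trend removed RPL22 came to -0.013 and was not called. RPL35A had 109 and 88.1 CPM in EPN24-Cas13d, against 84.3 and 197 CPM in EPN24. Its groups overlapped, because the EPN24 libraries lay on both sides of EPN24-Cas13d, and its log2 fold change of -0.51 was not called. Without the first EPN24 library, RPL35A (-1.14) and the other members not called (RPL17, RPL6, RPL29, RPL35 and RPL19, from -0.19 to -0.56) were all called lower. With the exon-length trend removed, RPL29 (0.68), RPL17 (0.67), RPL35 (0.56), RPL6 (0.45) and RPL19 (0.35) were called higher. RPL17 (1.24) and RPL6 (1.09) were also called higher with the GC trend removed, as was RPL6 (0.35) without the filter. RPL29 (-0.40) and RPL35 (-0.70) were called lower with the GC trend removed. Scaling by total gene counts, the stricter filter and halved counts gave calls of lower for all 6, and RPL35A (-0.62) was called lower with pseudogene counts added.

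Across the members, the fold change went with the length of the encoded protein. The log2 fold change on the gene-count scale and the log2 protein length had a Pearson r of 0.67 and a Spearman rho of 0.72 over 45 genes, as a description, since the genes share the same 4 libraries. All 5 messages for proteins of up to 100 residues were lower, with a median of -2.30, and all 3 for proteins over 300 residues were higher, with a median of 2.76. In between, the medians were -2.08 for the next bin of up to 150 residues (16 genes), -0.67 for that of up to 200 residues (10 genes) and 1.08 for that of up to 300 residues (11 genes). Among all tested protein-coding genes, 68.2% of the 280 with up to 100 residues were lower. Of the 11463 with over 300 residues, 39.3% were higher. Messages for proteins over 200 residues took 82.7% ± 0.577 of large subunit counts in EPN24-Cas13d and 46.6% ± 0.206 in EPN24 (SD, n = 2 each). Those for proteins of up to 130 residues took 4.33% ± 0.229 in EPN24-Cas13d and 23.7% ± 0.115 in EPN24. RPL5, RPL7 and RPL14, of 297, 248 and 215 residues, fell although their proteins are long, and RPL28, of 137 residues, rose although its protein is short.

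The 32 messages of the small subunit had a Pearson r of 0.50 with protein length, and the 15210 protein-coding genes with a matched coding sequence one of 0.077. All protein-coding genes nonetheless had their lowest medians in the shortest bins, at -2.32 for up to 100 residues (280 genes) and -1.34 for the next bin of up to 150 residues (640 genes), and -0.47 and -0.27 in the bins of over 200 to 300 and of over 300 residues (1974 and 11463 genes). The 5 shortest large subunit messages thus lay near other genes of their length, at -2.30 beside -2.32. Those of the next bin lay below other genes, at -2.08 beside -1.34, and those of over 200 to 300 residues above them, at 1.08 beside -0.47. Every bin of the members holds fewer than 20 genes, and whether they differ from other genes of that length was not tested. With the deposited exon length in place of protein length, which counts every exon of a gene whether or not it is used, r was 0.086.

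The base composition of the coding sequence moved with the same fold changes. Coding GC had a Pearson r of 0.59 with the log2 fold change over the 45 members, of 0.46 over the small subunit messages and of 0.45 over all protein-coding genes. Length and GC were only weakly related among the members themselves, with r = 0.18. Dividing the members at their median length of 157 residues and median GC of 50.3% gave 14 longer, GC-rich messages with a median log2 fold change of 1.63, of which 10 were higher and 2 lower. The 8 longer, GC-poor messages had a median of -0.73, the 8 shorter, GC-rich ones -1.03, and the 15 shorter, GC-poor ones -2.74, with 14 of those 15 lower and none higher. Of all tested protein-coding genes, 37.0% were higher and 42.9% lower. Genes outside the family were not divided in this way, so whether the members differ from genes of like length and GC was not tested. With a trend of fold change on GC over all genes removed, r with length was 0.72.

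**Figure D4:**
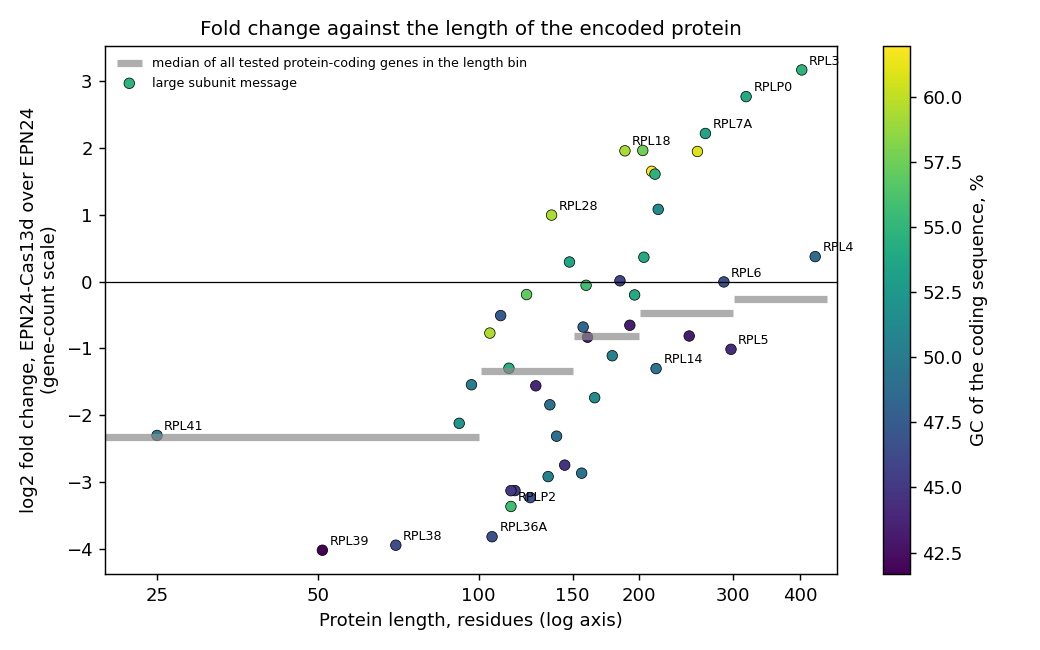
Log2 fold change on the gene-count scale against the number of residues in the encoded protein (log axis) for the 45 messages, coloured by coding GC in percent; grey bars give the median of all tested protein-coding genes in 5 length bins. The points climb from RPL39, RPL38 and RPL36A at the lower left to RPL3 and RPLP0 at the upper right, while the grey bars climb less, from -2.32 to -0.27.

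Messages related by function were compared as lists, by counts and medians on the gene-count scale. The 32 small subunit messages had 10 higher, 17 lower and 5 not called, with a median of -0.45, and they too spanned a wide range, from RPS3 at 3.04 to RPS25 at -3.42. Their summed share of gene counts was 1.38% ± 0.0680 in EPN24-Cas13d and 1.01% ± 0.0306 in EPN24 (SD, n = 2 each). Large subunit counts stood to small subunit counts as 1.27 and 1.25 in EPN24-Cas13d, against 1.34 and 1.33 in EPN24, a ratio of 0.941 with no overlap between the libraries (two-sided exact permutation p = 0.333, the smallest possible).

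Among paralogs of the members, RPL22L1, RPL26L1 and RPL36AL, which can replace a member in the ribosome, fell on the gene-count scale, with log2 fold changes of -4.83, -2.95 and -2.74. RPL3L, the muscle paralog of RPL3, was lower too, at -2.12, and RPL7L1 was not called, at 0.14. RPL22L1 had 0 and 4 counts in the EPN24-Cas13d libraries, against 31 and 35 in EPN24, so its fitted value depends on the prior count.

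Other messages with the TOP motif, such as those of elongation factors, gave 9 higher and 8 lower of 17, with a median of 1.54. VIM, counted above among the HEK293 markers, is also on this list. EEF2, the translocation factor, rose by 4.38, to 18420 ± 272 CPM in EPN24-Cas13d against 887 ± 59.0 CPM in EPN24 (SD, n = 2 each). EEF1G, a subunit of the factor that reloads elongation factor 1A, rose by 3.14, while TPT1, a classic TOP message for a small protein, fell to a log2 fold change of -3.76 and EEF1A1 to -1.05. Of 5 genes of the LARP family, which holds the TOP-binding repressor, 3 were higher and 1 lower, with LARP1 at 4.44, LARP4B at 2.34 and LARP4 at -2.33. The 25 assembly factors of the large subunit, proteins that build it in the nucleolus and nucleus, gave 13 higher, 7 lower and 5 not called, with a median of 0.61. Among them BOP1 and PES1, partners in the PeBoW complex, stood at 4.83 and 2.98, whereas WDR12, which completes the complex, was at -2.11.

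Introns of ribosomal protein genes often carry small nucleolar RNAs, and 18 members hold 38 snoRNA genes within their bounds. Of these 18 hosts, 7 were higher, 10 lower and 1 not called, with a median of -0.92. The 27 members without a snoRNA gene gave 6 higher, 16 lower and 5 not called, with a median of -0.77.

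Large subunit messages have many processed pseudogenes, and reads shared with them may be counted on either. The count table names 648 pseudogenes of the 45 members. RPL39 was the most affected: its pseudogenes held 59.5 and 68 counts in EPN24-Cas13d, against 5.5 and 14 in EPN24, which is 73.5% of the pooled gene and pseudogene counts in EPN24-Cas13d and 4.64% in EPN24. Nearly all stood on RPL39P5, with 56.5 and 66 counts in EPN24-Cas13d, against 0.5 and 5 in EPN24. RPL39P5 is annotated over chr3:134351852-134356561, and whether its reads stem from RPL39 or from that locus itself was not tested. With pseudogene counts added, RPL39 per ERCC count came to 1.19 and passed the test (adjusted p = 0.000822, same edgeR test), so its direction on that scale is uncertain. On the gene-count scale it came to -2.17 in place of -4.02, which leaves RPL38 (-3.94), RPL36A (-3.69), RPLP2 (-3.36) and RPL31 (-3.35) lower than RPL39. RPL23A had 32.1% of such counts on pseudogenes in EPN24-Cas13d and 34.1% in EPN24, and RPL32 had 26.8% in EPN24-Cas13d and 8.58% in EPN24. RPL7 had 3.30% in EPN24-Cas13d and 26.2% in EPN24, and RPL21 had 3.54% in EPN24-Cas13d and 24.5% in EPN24. Exons of 27 members overlap another annotated gene, among them the readthrough genes RPL17-C18orf32 and RPL36A-HNRNPH2 and, on the opposite strand of RPL10, DNASE1L1. The values of RPL17, RPL22, RPL26, RPL36 and RPL36A, which share exon bases with a protein-coding gene on the same strand, are uncertain to that extent under any strand setting. So is that of RPL13A, which shares them with a long noncoding RNA gene. Several other members share bases with snoRNA or miRNA genes on the same strand. The value of RPL10 depends on the strand setting of the counting, which no source used here gives. That also holds for RPL32, RPL30, RPL36, RPL6, RPL15 and RPL38, which overlap genes on the opposite strand. RPL4, RPL5, RPL17, RPL22, RPL23A, RPL27A, RPL31, RPL35 and RPL36A have such overlaps as well.

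The authors' deposited table of the same comparison lists all 45 members. At its adjusted p under 0.05, 35 members were higher and none lower, where 30.6% of the 39719 genes with an adjusted p were higher and 0.201% lower. The median member stood at 2.52 in the authors' deposited table, beside 0.985 for all genes listed there with an adjusted p. That background holds more genes than the 20476 that passed the filter here. Of those 20476, 58.4% were higher per ERCC count, with a median of 2.38 beside 2.56 for the members. RPL3 stands at 6.49 in the authors' deposited table and RPL39 at -0.71, near the values of the ERCC scale here, and RPL38 has an adjusted p of 0.21 in it. RPL26 and RPL32, higher per ERCC count in the edgeR fit, are not called in the authors' deposited table, at 0.58 and 0.41. The edgeR call of RPL32 (0.44) ended under the same alternatives as that of RPL26.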

How the data were processed

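Total RNA of 200 µl of cleared supernatant was sequenced in 4 libraries, after 17 PCR cycles, with no molecular identifiers named in the labels. Per the submitters' processing notes, the tools were STAR 2.7.10a, featureCounts 2.0.1, DESeq2 1.36.0, FastQC 0.11.9 and Trim Galore 0.6.7, and the build was hg38 (GRCh38). No source used here states the annotation, strand setting or multi-mapping option. The deposited gene values are expected counts, 7.82% to 9.19% of them not whole, beside each gene's exon length. Of the 61640 rows of that table, 5 pieces of a broken gene row were left out, which leaves 61543 genes and 92 ERCC transcripts. The authors also deposited DESeq2 results, which hold log2 fold changes, p-values, a mean normalized count (signal) and a Wald score, with no size factors.

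Counts were rounded and tested over all genes in R 4.3.3 with edgeR 4.0.16 (filterByExpr, robust quasi-likelihood test, Benjamini-Hochberg adjustment, threshold 0.05), once with TMM scaling without ERCC rows and once with summed ERCC counts as library sizes. SEs are approximate, the absolute log2 fold change over the square root of F. DESeq2 1.42.0 was an alternative. On simulated counts of 19440 genes with this gene-count comparison, 68% of 2-fold and 100% of 4-fold changes were recovered, with 7 false calls. The simulation changed 100 genes at each fold, in both directions, with no shift in the kinds of RNA. It therefore does not give the rate of false calls in these libraries, where most tested genes were called. Depth is given per library; 3 counts correspond to between 0.721 and 1.42 CPM, and counts can include PCR copies. Protein length and coding GC come from GENCODE 29 transcripts matched by gene ID (45 of 45 members), and start sites from RefSeq on GRCh38.p14.

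The members, the lists of related genes and the tests were chosen with earlier results of these data known. Given with every library are the 5 largest and 5 most negative called members, the 3 highest by mean CPM in each group, and RPLP0, RPLP1, RPLP2, RPL5, RPL11, RPL10A and RPL41; other members are given by role. Genes outside the members were named after their values were seen. Alternatives were other scalings and filters, counts halved, pseudogene counts added, DESeq2, a replicate block and each library left out; removal of a GC trend was added after the data were seen. Some genes of the list outside the members are not reported here.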

Additional observations from a re-analysis of the deposited data

How the results depend on the processing

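Per ERCC count, 38 of the 45 members kept their direction and their side of the threshold under every alternative run, and on the gene-count scale 27 of 45 did. On the gene-count scale, between 8 and 18 members were higher and between 21 and 35 lower over all alternatives; the count of 8 came from the stricter filter, under which TMM is computed on fewer genes. Leaving out single libraries, with the lone library of a group assumed to vary like the others, gave 10 to 13 higher and 23 to 32 lower. Per ERCC count, between 33 and 38 members were higher, and leaving out single libraries gave 33 to 38. The 1 member lower per ERCC count became 0 without a filter, under the replicate block and with DESeq2, and 0 to 2 when single libraries were left out.

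The summed share of gene counts, 1.29-fold higher, ranged from 1.25 to 1.32 without single libraries, and turned to 0.561 as a share of protein-coding counts. The summed level per ERCC count ranged from 18.1-fold to 19.8-fold without single libraries. The ratio of large to small subunit counts, 0.941, was 0.927 with pseudogene counts added. The r with protein length ranged from 0.66 to 0.68 without single libraries, and was 0.64 with pseudogene counts added, 0.72 with the GC trend removed and 0.086 with exon length.

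RPL15, RPL27A and RPL4 turned to -0.50, -0.57 and -0.49 under the stricter filter, to -0.036, -0.11 and -0.025 with counts halved, and to -0.21, -0.28 and -0.19 with total gene counts. With the GC trend removed, RPL5, RPL24, RPL9, RPL7 and RPL21 turned to 0.49, 0.13, 1.00, 0.86 and 0.83. For these turns the cause was not tested.

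With the replicate number as a block, 12 members were higher and 26 lower on the gene-count scale, and 35 were higher and 0 lower per ERCC count; RPL27A (0.29) lost its call on the gene-count scale, and RPL26, RPL32 and RPL38 lost theirs per ERCC count. The deviations of same-numbered libraries had a correlation of -0.0041 over genes. With 2 libraries a group, this value cannot show whether same-numbered libraries shared a culture or a batch. Depth limits the lowest members: RPL39 rests on 28 and 18 counts in EPN24-Cas13d.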
